A study of Homo sapiens with 6 samples.

Results

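The genes described here are the SR splicing factors with SRSF symbols and the heterogeneous nuclear ribonucleoproteins with HNRNP symbols. They were taken by symbol: every SRSF gene with a number, and every HNRNP gene that is not numbered as a pseudogene. This gave 38 of the 61267 genes in the deposited count table, 12 SRSF and 26 HNRNP genes. RNA was sequenced from THP-1, a line of human monocytic leukemia cells, after 100 ng/ml of the phorbol ester PMA for 48 hours, a treatment that makes the cells adhere and resemble macrophages. There were 3 libraries labelled NC and 3 labelled KD. All 6 carry the same line and the same PMA treatment, and the labels name neither a target for KD nor the agent used in either group. The series title names METTL1, an enzyme that places 7-methylguanosine in RNA.

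SR proteins carry RNA recognition motifs and a tail rich in arginine and serine. They bind exon sequences and recruit the spliceosome, and kinases that phosphorylate the tail set where they are in the nucleus. Many hnRNP proteins coat nascent RNA and often keep an exon from being used, so that SR and hnRNP proteins can compete at the same exon. Genes of both families are known to limit their own output by splicing in exons or introns that send the transcript to nonsense-mediated decay. In the GENCODE release 29 annotation, 12 of the 12 SRSF genes have a transcript marked for that decay, and 13 of the 25 HNRNP genes found there do. The same holds for 34.8% of the 19702 genes with a coding transcript. The counts used here add all transcripts of a gene together, so no isoform was measured.

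The windows upstream of 4 of these genes are shown, chosen after their values were seen: SRSF12 had the largest fall, SRSF4 fell while its relative SRSF6 did not, and HNRNPU was slightly higher in KD on the main scale. Each line holds the 250 bases before the RefSeq start (GRCh38.p14), 5′ to 3′ on the strand of the gene, with motif matches in capitals. The windows lie at chr6:89118072-89118321 (minus strand), chr1:29181901-29182150 (minus strand), chr20:43457646-43457895 (plus strand) and chr1:244864544-244864793 (minus strand).
SRSF12: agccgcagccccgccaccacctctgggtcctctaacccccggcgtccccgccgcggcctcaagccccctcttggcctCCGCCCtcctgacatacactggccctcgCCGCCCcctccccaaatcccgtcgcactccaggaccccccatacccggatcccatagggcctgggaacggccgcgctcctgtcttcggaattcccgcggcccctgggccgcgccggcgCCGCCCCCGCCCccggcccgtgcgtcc
SRSF4: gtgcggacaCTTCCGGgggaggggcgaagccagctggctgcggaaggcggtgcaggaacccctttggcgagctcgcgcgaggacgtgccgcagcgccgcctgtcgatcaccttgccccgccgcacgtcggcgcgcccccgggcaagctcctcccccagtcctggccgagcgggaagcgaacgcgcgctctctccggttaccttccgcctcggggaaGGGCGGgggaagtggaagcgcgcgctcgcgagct
SRSF6: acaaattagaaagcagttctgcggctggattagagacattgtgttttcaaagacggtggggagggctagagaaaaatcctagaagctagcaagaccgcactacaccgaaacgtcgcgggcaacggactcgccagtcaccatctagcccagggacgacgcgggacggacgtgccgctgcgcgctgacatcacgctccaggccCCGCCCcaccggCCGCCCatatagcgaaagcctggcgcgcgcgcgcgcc
HNRNPU: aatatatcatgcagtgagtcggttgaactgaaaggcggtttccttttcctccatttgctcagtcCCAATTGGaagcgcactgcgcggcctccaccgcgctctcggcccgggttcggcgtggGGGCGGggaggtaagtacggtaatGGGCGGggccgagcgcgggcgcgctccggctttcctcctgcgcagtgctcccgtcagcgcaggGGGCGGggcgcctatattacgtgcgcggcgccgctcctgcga

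A total of 34 of the 38 genes matched a RefSeq window, and the first window listed was used where a gene had several. Motifs were searched on both strands. The GC box GGGCGG was present in 20 of the 34 windows, all 4 shown among them, and in 42.3% of the windows of all 27305 genes. CCAAT was present in 17 windows, that of HNRNPU among them, against 33% of all. The E-box CACGTG, a site bound by MYC with MAX, stood in 6 windows, against 6.49% of all. Those windows belong to HNRNPA3, HNRNPD, HNRNPDL, HNRNPH2, HNRNPH3 and HNRNPM. The ETS motif CCGGAAG was in 5 windows, SRSF4 among them (8.82% of all), and TATAAA in 5 (11.1% of all). The CREB motif TGACGTCA (1.77% of all) and the YY1 core GCCATNTT (3.91% of all) were found in 0 of the windows. Each motif was counted on its own, also where it overlaps another. The median GC content was 64.2% in these windows and 58% in all.

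The libraries held 37628972 to 42970216 counts each. Levels are given in CPM, a gene's count scaled to the library size, here after TMM (trimmed mean of M values) scaling unless library sizes alone are named. METTL1, the gene in the series title, had 596, 653 and 642 counts in NC and 567, 528 and 524 in KD. Its log2 fold change, KD over NC, was -0.105 (SE 0.0765, edgeR adjusted p = 0.216), and the labels do not say that it was the target. Of 16 neural and epithelial genes that monocytes are not known for, 15 were lower in KD. Their summed level was 2866 to 3301 CPM in NC and 47.9 to 49.9 CPM in KD, with LIN28B at 0 in KD and 0 of the 16 at 0 in NC. All 32 leukocyte-restricted genes, PTPRC and SPI1 among them, were higher in KD on the TMM scale, with a sum of 3206 to 3399 CPM in NC and 8388 to 8520.0 CPM in KD. All 10 macrophage markers, CD14 and CD68 among them, were detected in both groups and higher in KD on the TMM scale. On a scale set by the leukocyte-restricted genes themselves, 3 of the 10 were higher and 4 lower, CD68 among the lower (-0.53). Of all tested genes, 2.38% were higher and 85.9% lower on that scale, and 36.2% were higher and 40.3% lower on the TMM scale. The part of these marker differences in the results below was not tested. In bulk RNA, fewer cells of a type and less RNA per cell cannot be told apart. The labels do not tell whether the libraries of a group are separate cultures, so the p-values measure the spread between these libraries, which may be technical.

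Most SRSF and HNRNP genes were lower in the KD libraries. Of the 34 that had enough counts to be tested, 27 were lower, 4 were higher and 3 did not pass (edgeR quasi-likelihood test, Benjamini-Hochberg adjusted p under 0.05, TMM scale). Over all 21905 tested genes, 40.3% were lower and 36.2% were higher, so that 76.5% passed in one direction or the other. Among genes averaging at least 100 CPM, 30.5% were lower and 61.6% higher. At that level stood 27 SRSF and HNRNP genes, 21 of them lower and 4 higher. The SRSF genes had 10 lower and 2 higher of 12 tested, and the HNRNP genes had 17 lower and 2 higher of 22 tested. The median log2 fold change was -0.56 for SRSF, -0.37 for HNRNP and -0.046 for all tested genes. The CPM ranges of NC and KD were apart for 31 of the 34 genes, against 78% of all tested genes. A fall of at least 2-fold was called for 5 of the 34, against 22.9% of all.

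**Figure D1:**
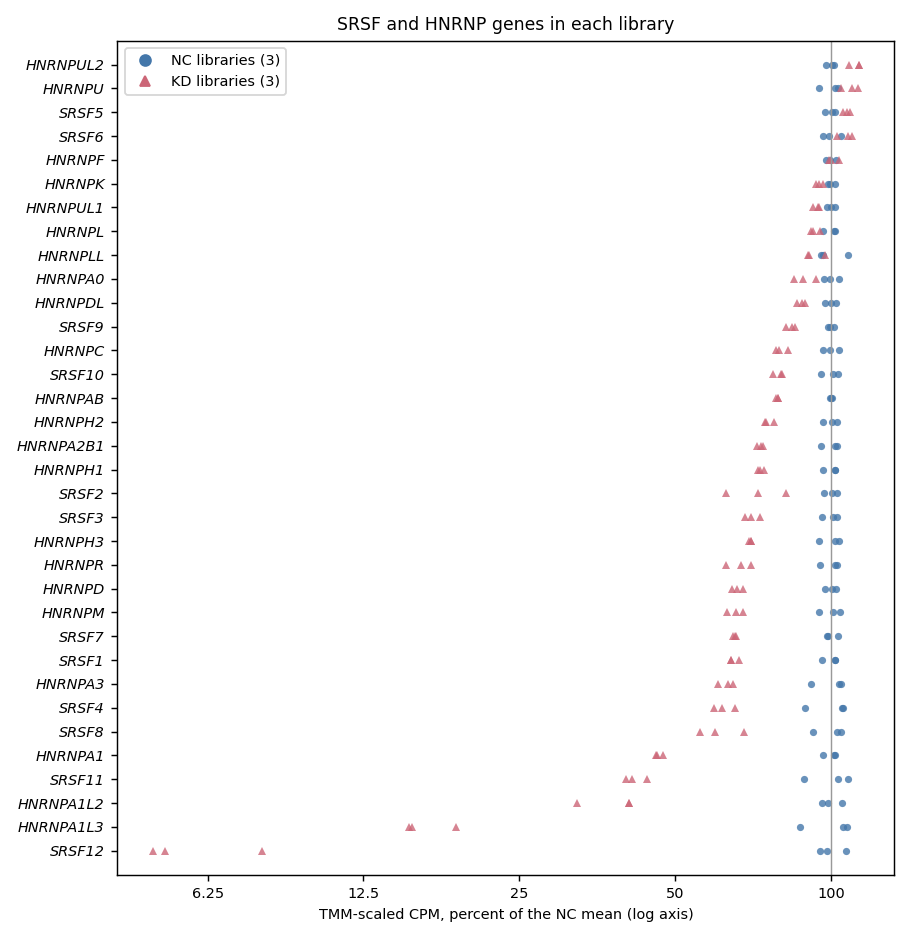
Level of each of the 34 tested genes (rows) in each library, as TMM-scaled CPM in percent of the gene's NC mean on a log axis; circles are the 3 NC libraries and triangles the 3 KD libraries. KD lies left of NC for most rows, farthest for SRSF12, HNRNPA1L3 and HNRNPA1L2, and the groups overlap for SRSF6, HNRNPF and HNRNPLL.

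Lower genes were the majority on each of 3 scales compared, and of these 3, higher genes were found on the TMM scale alone. DESeq2 size factors, another scaling over all genes, gave the same 27 lower and 4 higher as TMM. There 8810 of all 21905 tested genes were lower and 7945 higher. With library sizes alone, 31 of 34 were lower and 0 higher, where 47.3% of all tested genes were lower and 28.4% higher. On a scale that takes the TMM factors from the 32 leukocyte-restricted genes, here called the leukocyte-gene scale, 34 of 34 were lower. There 85.9% of all tested genes were lower and 2.38% higher. The median of all tested genes was -0.046 on the TMM scale, -0.23 with library sizes alone and -1.35 on the leukocyte-gene scale. The medians of the SRSF and HNRNP genes were -0.45, -0.64 and -1.76, below that of all genes on each scale. A change of scale moves all genes by nearly the same amount. The gap to all genes is thus the same observation on each scale, not separate support. Unless another scale is named, values below are on the TMM scale.

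**Figure D2:**
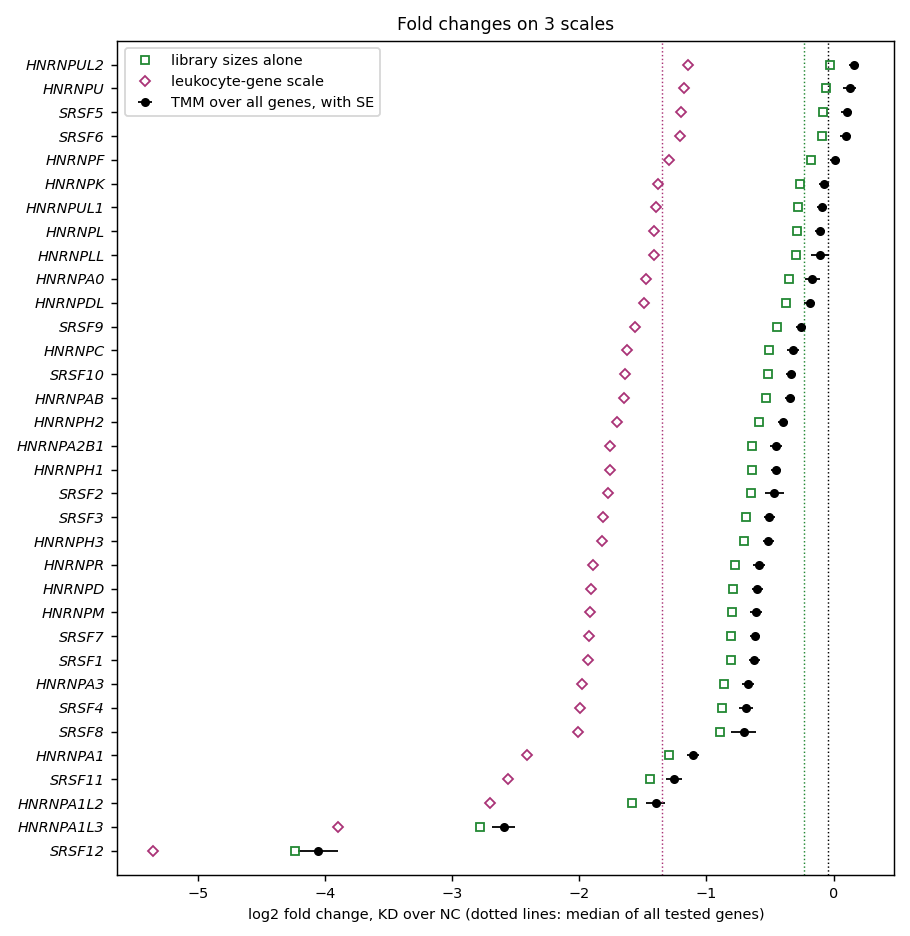
Log2 fold change, KD over NC, of each of the 34 tested genes on 3 scales: TMM over all genes (filled circles, bars are the SE), library sizes alone (squares) and the leukocyte-gene scale (diamonds). Dotted lines mark the median of all tested genes on each scale (-0.046, -0.23 and -1.35). The order of the genes is much the same on all 3, since a change of scale moves all genes together. Of these 3 scales, HNRNPUL2, HNRNPU, SRSF5, SRSF6 and HNRNPF are above 0 on the TMM scale alone.

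Together the 38 genes took 26154.5 to 27010.2 CPM in NC and 16832.0 to 17030.9 CPM in KD, with library sizes alone. The SRSF genes took 3577.4 to 3841.4 CPM in NC and 2185.4 to 2223.0 CPM in KD. The HNRNP genes took 22577.1 to 23226.5 CPM in NC and 14646.6 to 14807.9 CPM in KD. Both families thus held a smaller part of all counts in each KD library than in any NC library.

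Per kilobase of exon, HNRNPA1 was the most abundant of the 38 genes in both groups. It stood at 634 ± 18.2 CPM per kilobase in NC and 295 ± 5.303 in KD (mean ± SD, n = 3 each). The length covers every annotated exon base of a gene, 22512 for HNRNPU, so the order of genes depends on the annotation. HNRNPA2B1 (283 ± 10.9) and HNRNPM (272 ± 12.8) followed in NC and did not differ beyond their spread. The next neighbours, HNRNPA3 (243 ± 17.7) and HNRNPAB (236 ± 1.22), did not either. Among SRSF genes SRSF11 was the most abundant per kilobase in NC at 127 ± 12.6, ahead of SRSF5 at 97.4 ± 2.18 and SRSF4 at 68.9 ± 6.401. In KD the order was SRSF5 at 104 ± 1.48, SRSF11 at 53.1 ± 2.63 and SRSF4 at 42.8 ± 2.07. At the low end of the tested genes in NC stood HNRNPLL (3.46 ± 0.237), HNRNPA0 (3.18 ± 0.108), SRSF8 (2.701 ± 0.178) and SRSF12 (2.39 ± 0.144). HNRNPCL1, HNRNPCL2, HNRNPCL3 and HNRNPCL4, copies of HNRNPC, were not tested. HNRNPCL1 had 4 counts in 1 NC library, 2 in 1 KD library and 0 in the rest, and the other 3 had 0 counts in all 6 libraries.

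Each gene's share of the summed counts per kilobase of the 38 genes does not depend on the scaling of a library. HNRNPA1 made up 17.7 ± 0.0752% in NC and 11.6 ± 0.0808% in KD. SRSF11 made up 3.53 ± 0.25% in NC and 2.096 ± 0.0716% in KD. Both shares were smaller in every KD library than in any NC library. The shares of HNRNPK (3.89 ± 0.185% in NC and 5.21 ± 0.143% in KD), HNRNPF (3.11 ± 0.0615% and 4.43 ± 0.0438%) and HNRNPAB (6.603 ± 0.249% and 7.35 ± 0.141%) were larger in KD. HNRNPA2B1 made up 7.91 ± 0.0556% and 8.18 ± 0.0298%. The shares of a library add up to a fixed whole, so a share can grow while the gene's own level does not. On the TMM scale HNRNPAB was lower in KD (log2 fold change -0.34) and HNRNPF did not pass (0.012).

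**Figure D3:**
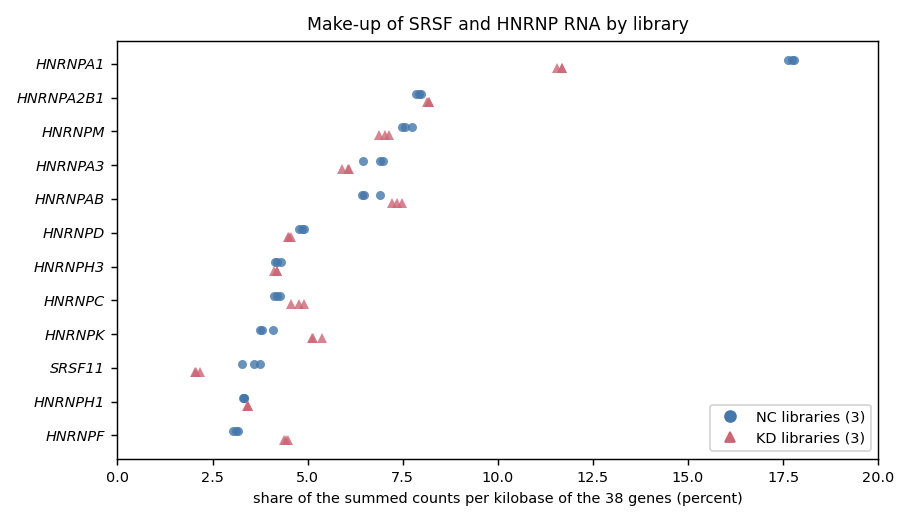
Share of the 12 most abundant genes in the summed counts per kilobase of all 38 genes, in percent, for each of the 3 NC libraries (circles) and 3 KD libraries (triangles). HNRNPA1, HNRNPM, HNRNPA3, HNRNPD and SRSF11 have smaller shares in KD. HNRNPA2B1, HNRNPAB, HNRNPC, HNRNPK, HNRNPH1 and HNRNPF have larger ones, and the groups overlap for HNRNPH3. A larger share need not mean a higher level, since the shares of a library add up to a fixed whole.

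Among SR proteins the largest difference was that of SRSF12, a less common family member described as opposing other SR proteins at 5′ splice sites. SRSF12 (chromosome 6, 89095959 to 89118071, minus strand, GRCh38) had 436, 437 and 524 counts in the NC libraries and 34, 22 and 21 in the KD libraries. Its level was 10.3, 10.7 and 11.6 CPM in NC and 0.864, 0.561 and 0.532 in KD. All 3 NC libraries lay far above all 3 KD libraries (log2 fold change -4.05, SE 0.157, edgeR adjusted p = 1.36e-17). The depth behind the KD values is low, and 67.8% to 70.3% of all table entries from 1 to 20 were even numbers, against 50.2% to 51.4% of those over 1000. Whether both reads of a pair were counted is not known from the labels, and with all counts divided by 2 the log2 fold change was -4.07.

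SRSF11 (chromosome 1, 70205682 to 70253052, plus strand), an SR-related nuclear protein, had the next largest fall of the SRSF genes. It had 1159, 953 and 1107 CPM in NC and 474, 443 and 431 in KD. NC replicate 2 was the lowest of its group and still lay above every KD library (log2 fold change -1.25, SE 0.0598, edgeR adjusted p = 1.72e-13). Of the 100-base stretches in its GENCODE transcripts, 0% occur in transcripts of another gene.

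SRSF8, a retrocopy of SRSF2, had 12.2, 10.8 and 11.95 CPM in NC and 6.504, 7.91 and 6.94 in KD (log2 fold change -0.71, SE 0.0951, edgeR adjusted p = 2.98e-07). SRSF2 itself, a component of nuclear speckles that is mutated in some myeloid neoplasms, had 25.7, 26.3 and 24.8 CPM in NC and 16.1, 18.5 and 21.03 in KD. The KD libraries of SRSF2 were spread more widely than those of NC, without reaching them (log2 fold change -0.47, SE 0.0756, edgeR adjusted p = 5.27e-06). Of the exon bases of SRSF2, 27.7% also lie in exons of MFSD11 on the other strand. Whether the counting used strand is not known from the labels, so reads of such neighbours cannot be told apart.

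SRSF4, SRSF5 and SRSF6 share a plan of paired RNA recognition motifs and a long tail. SRSF4 had 637, 542 and 642 CPM in NC and 396, 373 and 360.4 in KD, with NC replicate 2 the lowest of its group and no overlap (log2 fold change -0.69, SE 0.0558, edgeR adjusted p = 3.60e-10). SRSF5 had 532, 509 and 524 CPM in NC and 568, 559.9 and 552 in KD, without overlap. SRSF6 had 113, 123 and 116 CPM in NC and 129, 121 and 127 in KD, and its groups overlapped. SRSF5 and SRSF6 were higher in KD by 0.101 (edgeR adjusted p = 0.0278) and 0.096 (edgeR adjusted p = 0.044) on the log2 scale. With library sizes alone SRSF5 passed in the opposite direction, as lower (-0.086, edgeR adjusted p = 0.0265). SRSF6 was below 0 there and did not pass (-0.092, edgeR adjusted p = 0.0595). The SRSF5 call was lost when single libraries were left out, with edgeR adjusted p = 0.0772 without NC replicate 2, 0.0541 without KD replicate 1 and 0.0698 without KD replicate 2. The SRSF6 call was lost likewise, with edgeR adjusted p = 0.234 without NC replicate 1, 0.111 without NC replicate 3, 0.114 without KD replicate 1 and 0.0743 without KD replicate 3. Of the exon bases of SRSF6, 13.4% also lie in a same-strand gene listed as ENSG00000288000. That gene had 3668, 3692 and 4011 counts in NC and 3965, 3696 and 3896 in KD. SRSF6 itself had 4778, 5027 and 5258 in NC and 5075, 4737 and 5001 in KD.

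The remaining SR proteins fell by less than 2-fold, and NC and KD were apart for each of them. SRSF1, the founding member that acts in constitutive and alternative splicing, went from 336 ± 10.98 to 218 ± 4.28 CPM (mean ± SD, n = 3 each). SRSF7 and SRSF3, which also serve as mRNA export adaptors, went from 135 ± 3.64 to 87.7 ± 0.671 CPM and from 203 ± 7.26 to 143 ± 4.803 CPM. The log2 fold changes of SRSF1, SRSF7 and SRSF3 were -0.62, -0.62 and -0.51. SRSF10, which acts as a repressor of splicing when it loses its phosphates, had 287, 266 and 281 CPM in NC and 224, 223 and 215 in KD (log2 fold change -0.33, SE 0.0415, edgeR adjusted p = 8.78e-08). SRSF9 fell by 0.26 on the log2 scale (SE 0.0393, edgeR adjusted p = 2.47e-06). Of the exon bases of SRSF1, 32.7% also lie in a gene on the same strand listed as ENSG00000266086, and 43.6% of those of SRSF9 lie in GATC on the other strand.

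Among the hnRNPs the A and B proteins bind UAG-containing sites and often repress exons. HNRNPA1, its near-copies HNRNPA1L2 and HNRNPA1L3, and HNRNPA3 had the largest falls of the tested HNRNP genes. HNRNPA2B1, HNRNPAB and HNRNPA0 fell less than HNRNPM (log2 fold change -0.61). HNRNPA1 (chromosome 12, 54280193 to 54287088, plus strand) had 4319.7, 4103 and 4308 CPM in NC and 2014, 1958 and 1948 in KD. The libraries of each group lay close together and the groups were far apart (log2 fold change -1.105, SE 0.0457, edgeR adjusted p = 5.02e-17). HNRNPA2B1 had 3633, 3415 and 3667 CPM in NC and 2641, 2614 and 2574 in KD (log2 fold change -0.45, SE 0.0459, edgeR adjusted p = 2.42e-09). HNRNPA3 fell by 0.67 and HNRNPAB by 0.34 on the log2 scale, the latter from 499.97 ± 2.58 to 394 ± 1.22 CPM. HNRNPA0, which binds AU-rich elements of cytokine mRNAs, fell by 0.17 (edgeR adjusted p = 0.0135), a call lost with edgeR adjusted p = 0.0728 without KD replicate 1. Of the exon bases of HNRNPA3, 53.6% also lie in exons of NFE2L2 on the other strand.

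HNRNPA1L2 and HNRNPA1L3 are near-copies of HNRNPA1. HNRNPA1L3 had 40.4, 32.8 and 39.8 CPM in NC and 5.84, 5.77 and 7.09 in KD (log2 fold change -2.595, SE 0.09, edgeR adjusted p = 1.36e-17). HNRNPA1L2 had 36.3, 33.2 and 34.2 CPM in NC and 14.1, 11.2 and 14.1 in KD (log2 fold change -1.40, SE 0.0745, edgeR adjusted p = 8.45e-15). Both levels are uncertain, since reads of HNRNPA1 can be placed on its copies: 31.6% of the 100-base stretches of HNRNPA1L2 occur in transcripts of another gene, most often HNRNPA1. No such value was obtained for HNRNPA1L3, which was not matched in GENCODE release 29. All exon bases of HNRNPA1L2 (100.0%) also lie in a same-strand gene listed as ENSG00000273784, which had 2251, 2083 and 2312 counts in NC and 753, 610 and 738 in KD. Per 1000 counts of HNRNPA1, HNRNPA1L3 had 8.002 to 9.36 counts in NC and 2.902 to 3.64 in KD. HNRNPA1L2 had 7.94 to 8.395 in NC and 5.71 to 7.22 in KD. Relative to HNRNPA1 itself, both copies were thus lower in every KD library than in any NC library.

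The pseudogene rows of HNRNPA1 are not among the 38 genes, and are given because reads of HNRNPA1 can be placed on them too. Those 74 rows held 2109 to 2554 counts in NC and 632 to 668 in KD. That is 1.24% to 1.31% and 0.822% to 0.844% of the HNRNPA1 counts. Single rows went in both directions. HNRNPA1P4 had 690, 622 and 740 counts in NC and 30, 32 and 28 in KD, while HNRNPA1P27 had 167, 126 and 157 in NC and 288, 270 and 261 in KD, both rows chosen after their values were seen.

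The other hnRNPs that fell bind a range of RNA sequences. HNRNPM, which prefers GU-rich RNA, went from 1523 ± 71.8 to 997 ± 34.2 CPM. HNRNPD, also known as AUF1, which promotes decay of mRNAs with AU-rich elements, went from 1215 ± 27.4 to 801 ± 19.1 CPM, and HNRNPR from 695 ± 29.7 to 463 ± 25.6 CPM. HNRNPC, which binds uridine-rich RNA, went from 1094 ± 39.9 to 876 ± 23.9 CPM. The G-run binding proteins HNRNPH1, HNRNPH2 and HNRNPH3 fell by 0.45, 0.40 and 0.52 on the log2 scale, and HNRNPDL, a relative of HNRNPD, by 0.19. For each of these 8 genes NC and KD were apart, and the edgeR adjusted p was at most 2.02e-04, that of HNRNPDL. HNRNPH2 shares 15.8% of its exon bases with the read-through gene RPL36A-HNRNPH2.

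HNRNPL, which binds CA repeats, and HNRNPUL1 were lower by little, with log2 fold changes of -0.105 (edgeR adjusted p = 0.0228) and -0.092 (edgeR adjusted p = 0.0376). The HNRNPL call was lost when single libraries were left out, with edgeR adjusted p = 0.0742 without NC replicate 3, 0.101 without KD replicate 2 and 0.094 without KD replicate 3. The HNRNPUL1 call was lost with edgeR adjusted p = 0.0669 without NC replicate 1, 0.111 without NC replicate 3, 0.128 without KD replicate 1, 0.101 without KD replicate 2 and 0.0776 without KD replicate 3.

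HNRNPU, which attaches RNA to chromatin, and its relative HNRNPUL2 stood at the upper end. HNRNPU had 2472, 2295 and 2505 CPM in NC and 2734, 2659 and 2538 in KD, with the highest NC library just under the lowest KD library. HNRNPUL2 had 413, 403 and 417 CPM in NC and 466, 465 and 445 in KD, without overlap. HNRNPU was higher in KD by 0.12 (SE 0.0478, edgeR adjusted p = 0.0208) and HNRNPUL2 by 0.16 (SE 0.0408, edgeR adjusted p = 0.00112) on the log2 scale, and with library sizes alone both were below 0, at -0.062 and -0.028. The HNRNPU call was lost with edgeR adjusted p = 0.0831 without NC replicate 2, 0.0657 without KD replicate 1 and 0.0695 without KD replicate 2. HNRNPUL2 shares 44.3% of its exon bases with the read-through gene HNRNPUL2-BSCL2, and HNRNPU shares 15.6% with COX20 on the other strand. HNRNPU also shares 3.46% with an other-strand gene listed as ENSG00000273175. That gene had 48047, 41963 and 52320 counts in NC and 51220, 48311 and 45298 in KD. HNRNPU itself had 104236, 94077 and 113163 in NC and 107618, 104231 and 100174 in KD. How many reads the 2 genes share is not known.

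The 3 tested genes that did not pass were HNRNPF, HNRNPK and HNRNPLL. HNRNPF, a G-run binder like HNRNPH1, had 372, 356 and 363 CPM in NC and 376, 363 and 361 in KD, so that the groups overlapped (log2 fold change 0.012, SE 0.0405, edgeR adjusted p = 0.796). HNRNPK, which binds poly-C through KH domains, had 789.6, 805 and 781 CPM in NC and 751, 741 and 763 in KD. Its groups were apart, yet the difference did not pass (log2 fold change -0.074, SE 0.0411, edgeR adjusted p = 0.103). HNRNPK did pass as lower with limma-voom (adjusted p = 0.0373), with only genes of a mean of at least 1 CPM (edgeR adjusted p = 0.0395) and with library sizes alone (log2 fold change -0.26, edgeR adjusted p = 8.89e-07). HNRNPLL, a regulator of CD45 exon use in lymphocytes, had 19.8, 22.2 and 19.7 CPM in NC and 19.996, 18.6 and 18.6 in KD, with overlap (log2 fold change -0.11, SE 0.0682, edgeR adjusted p = 0.154). With library sizes alone HNRNPF (-0.175, edgeR adjusted p = 8.37e-05) and HNRNPLL (-0.296, edgeR adjusted p = 9.35e-04) passed as lower too. All 3 genes were lower on the leukocyte-gene scale.

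Ratios between related genes were taken within each library, so that the scaling of a library cannot move them. A total of 14 pairs of relatives were compared, and in 10 of them the ratios of NC and KD were apart. No pairs of unrelated genes were compared. Among all tested genes, taken singly, the CPM ranges were apart for 78%, so this count is not read as particular to relatives. With 3 libraries against 3, the smallest p an exact two-sided permutation test can give is 0.1, so that 0 pairs could pass 0.05. That was the p of these 10 pairs (0.14 after Benjamini-Hochberg adjustment over the 14, exact permutation test).

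The log2 ratio of SRSF10 to SRSF12 counts was 4.79, 4.64 and 4.597 in NC and 7.999, 8.602 and 8.62 in KD, a difference of 3.73 with a 95% interval of 3.14 to 4.32 from the spread of the libraries. That of SRSF4 to SRSF6 was 2.49, 2.14 and 2.46 in NC and 1.62, 1.63 and 1.51 in KD, a difference of -0.78 (95% interval -1.11 to -0.45). That of HNRNPA1 to HNRNPA2B1 was 0.25, 0.27 and 0.23 in NC and -0.39, -0.42 and -0.402 in KD, a difference of -0.65 (95% interval -0.69 to -0.62). These were the pairs that moved by 0.5 or more. The HNRNPA1 ratio is one of counts, and per kilobase HNRNPA1 stayed the more abundant gene in both groups. Smaller shifts were seen for HNRNPH1 over HNRNPF (-0.46), HNRNPA1 over HNRNPA3 (-0.43), HNRNPD over HNRNPDL (-0.41) and SRSF1 over SRSF9 (-0.37). HNRNPUL1 over HNRNPUL2 differed by -0.25 and HNRNPU over HNRNPUL1 by 0.22.

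HNRNPH1 over HNRNPH2 differed by -0.052, with a 95% interval of -0.086 to -0.018, and its groups were apart. In the other 4 pairs the ratios of NC and KD overlapped. For SRSF5 over SRSF6 the difference was 0.005 and the interval -0.16 to 0.17. For HNRNPL over HNRNPLL it was 0.003, with an interval of -0.15 to 0.16. The difference was 0.11 for SRSF3 over SRSF7 (interval -0.01 to 0.23) and 0.23 for SRSF2 over SRSF8 (interval -0.14 to 0.61), so that the data leave room for a shift of SRSF2 over SRSF8 in either direction.

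**Figure D4:**
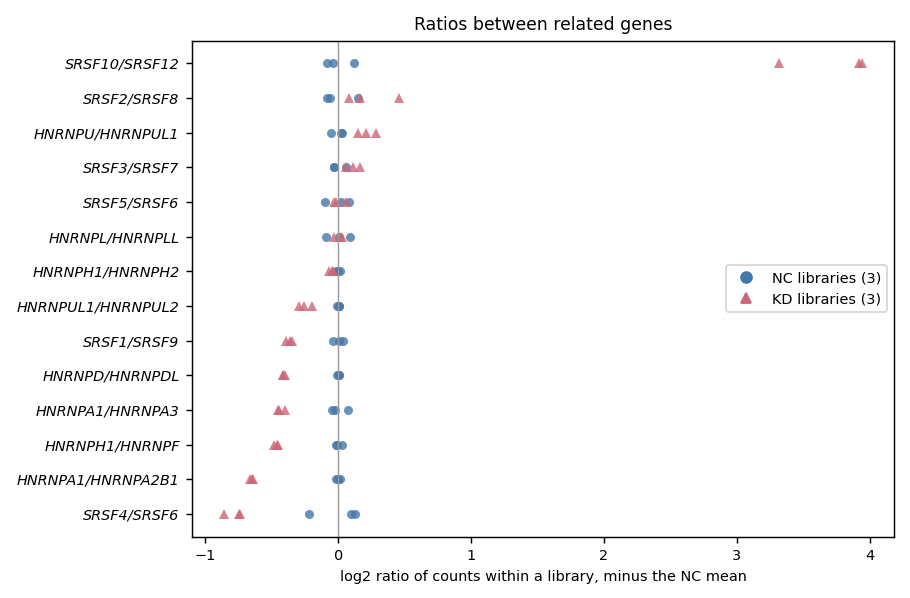
Log2 ratio of counts between related genes within each library, minus the NC mean of the pair, for the 14 pairs; circles are the 3 NC libraries and triangles the 3 KD libraries. SRSF10 over SRSF12 lies farthest right in KD (3.73 on average) and SRSF4 over SRSF6 farthest left (-0.78), while SRSF5 over SRSF6 and HNRNPL over HNRNPLL overlap.

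The kinases that phosphorylate SR proteins went in both directions. The list of 8 genes for such kinases and the importin TNPO3 had 2 higher and 4 lower of 8 tested. Over all tested genes, 36.2% were higher and 40.3% lower. CLK4 and CLK1, nuclear kinases that release SR proteins from speckles, went from 42.8 ± 1.95 to 67.6 ± 2.18 CPM and from 82.004 ± 2.84 to 106 ± 0.386 CPM, and both were lower on the leukocyte-gene scale, at -0.65 and -0.94. SRPK2, which acts on the tail in the cytoplasm, went from 43.2 ± 4.11 to 19.7 ± 1.78 CPM, and SRPK3 from 1.44 ± 0.277 to 0.754 ± 0.199 CPM.

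SR-related proteins had 4 higher and 9 lower of 18 tested, with a median log2 fold change of -0.11. For this list and the next, the shares of all tested genes were 36.2% higher and 40.3% lower. SCAF11 was higher by 0.83 (SE 0.0408) and SON, a scaffold of nuclear speckles, by 0.42 (SE 0.0458) on the log2 scale, and both were lower on the leukocyte-gene scale (-0.47 and -0.88). SRRM3 fell by 3.14 (SE 0.404) and U2SURP by 0.999 (SE 0.044). The hnRNPs and similar proteins under other symbols had 6 higher and 9 lower of 19 tested, with a median of -0.24. PCBP1, a poly-C binding protein, went from 115 ± 2.26 to 172 ± 6.04 CPM and PSPC1 of the paraspeckles from 166 ± 6.89 to 236 ± 14.9 CPM, both lower on the leukocyte-gene scale (-0.73 and -0.795). RBMX went from 234 ± 8.06 to 125 ± 6.57 CPM, and PTBP2, the neural relative of PTBP1, from 17.4 ± 1.04 to 10.6 ± 0.485 CPM.

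Splicing factors known for tissue-restricted use had 7 higher and 16 lower of 24 tested and a median of -0.82. Of all tested genes, 36.2% were higher and 40.3% lower. RBM20, known from heart muscle, went from 29.2 ± 2.14 to 0.254 ± 0.183 CPM. NOVA1, a neuronal factor, stood at 3.45 ± 0.527 CPM in NC and had 0 counts in KD, at least 136-fold lower with the KD group set at 3 counts in all, a bound that covers counting error only. ELAVL4 went from 0.278 ± 0.0657 to 1.52 ± 0.197 CPM and KHDRBS2 from 0.378 ± 0.139 to 1.91 ± 0.0551 CPM, and both were also higher on the leukocyte-gene scale. The neural and epithelial genes listed above were lower in the same KD libraries, and their part in these falls was not tested.

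Among the core parts of the spliceosome the proteins of the small nuclear ribonucleoproteins (snRNPs) were mostly lower. They had 2 higher and 15 lower of 19 tested and a median of -0.59, against 36.2% higher and 40.3% lower of all tested genes. SNRNP48 of the minor spliceosome went from 106 ± 8.04 to 25.5 ± 2.02 CPM and SNRPE, one of the Sm ring, from 66.8 ± 0.389 to 22.9 ± 1.36 CPM. SNRPN, a Sm protein expressed from an imprinted locus, went from 8.39 ± 0.306 to 21.6 ± 1.49 CPM and did not pass on the leukocyte-gene scale (0.062). SNRNP27 went from 177 ± 6.07 to 208 ± 12.8 CPM and was lower on that scale (-1.07).

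Factors that recognise the 3′ splice site had 2 higher and 8 lower of 14 tested, with a median of -0.28. For this list and the PRPF list below, the shares of all tested genes were 36.2% higher and 40.3% lower. U2AF1, which reads the AG at the intron end, went from 242 ± 9.92 to 128 ± 2.74 CPM and SF3B6 from 64.3 ± 0.888 to 33.05 ± 2.198 CPM. SF3B4 went from 24.8 ± 2.27 to 32.01 ± 1.92 CPM and was lower on the leukocyte-gene scale (-0.94). SF3B1, a branch site factor mutated in myeloid disease, had a log2 fold change of 0.099 (edgeR adjusted p = 0.0302), of -0.088 with library sizes alone and of -1.21 on the leukocyte-gene scale. PRPF and tri-snRNP genes had 4 higher and 8 lower of 16 tested, with a median of -0.094. PRPF39 fell by 0.904 and PRPF19 by 0.81, and PRPF40B was higher by 0.804 and PRPF18 by 0.56 on the log2 scale, the last pair lower on the leukocyte-gene scale (-0.501 and -0.74).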

How the data were processed

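RNA from PMA-treated THP-1 cells was measured in 6 libraries, grouped as NC and KD by the labels. Reads were trimmed with fastp 0.23.0 and the genome was GRCh38, per the submitters' processing notes. The sources used here do not give the aligner, the counter, the annotation release or the use of strand. The authors deposited whole-number counts per gene, not normalized, with positions and exon lengths for 61267 genes, as the file headers show. Some genes that share exons held similar counts, so a read may count for several genes. Library pairs of a group differed by more than sampling noise, with a chi-square of 3.24 to 6.46 per degree of freedom. The members and the gene lists were chosen with earlier results of these data known.

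The deposited counts were analysed with edgeR 4.0.16 (R 4.3.3): TMM, filterByExpr, robust quasi-likelihood fit of all 6 libraries, two-sided, Benjamini-Hochberg adjustment over the 21905 genes tested. The SE was obtained as the absolute log2 fold change over the square root of F. CPM uses TMM-scaled library sizes, and ratios use counts plus 0.5. On counts simulated for KD against NC over 21905 genes, with changed genes at 5 CPM or more, 78% of 50 genes changed 1.25-fold and 98% of 50 changed 1.5-fold were recovered, and 12 unchanged genes were called. That simulation gave every gene the same dispersion and changed few genes. It therefore cannot test the scaling or the false calls in data where 76.5% of tested genes passed. Values in each library are given for the 6 highest and 6 lowest log2 fold changes and for pairs whose log2 ratio moved by 0.5 or more. SRSF2 and HNRNPLL were added after their values were seen. From each list up to 2 rises and 2 falls are named. Alternatives were other scalings and filters, DESeq2 1.42.0, limma-voom (3.58.1), no robust estimation, a replicate block, counts divided by 2, stricter thresholds and leaving out each library. Transcript types came from GENCODE 29 and upstream windows from RefSeq; promoter starts can differ from those of the count table.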

Additional observations from a re-analysis of the deposited data

How the results depend on the processing

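For 24 of the 34 tested genes, direction and call at an adjusted p of 0.05 were the same under every scaling, filter, tool, block and left-out library tried. The number of SRSF and HNRNP genes lower in KD, 27, was 7 when a fold of 1.5 was tested, where all tested genes gave 9655 calls in place of 16758, and 25 to 27 with a library left out. The number higher, 4, stayed 4 with DESeq2 size factors, limma-voom and counts divided by 2. It was 3 with DESeq2, with no low-count filter and with no robust estimation. It was 0 with library sizes alone, on the leukocyte-gene scale and against a fold of 1.5. It was 1 with a mean of at least 1 CPM, with the replicate block and at an adjusted p of 0.01, and 1 to 3 with a library left out. With library sizes alone HNRNPUL2 was at -0.028, HNRNPU was at -0.0616, SRSF5 was at -0.0858, SRSF6 was at -0.0919 and HNRNPF was at -0.175, and on the leukocyte-gene scale these genes were at -1.15, -1.18, -1.20, -1.21 and -1.29, 2 scales that by construction move all genes together. HNRNPF was at -0.0111 with a mean of at least 1 CPM and between -0.00951 and 0.031 with a library left out. Likewise the difference in log2 ratio was -0.044 to 0.045 for SRSF5 over SRSF6 and -0.043 to 0.048 for HNRNPL over HNRNPLL. With the replicate number as a block, 26 genes were lower and 1 higher, and the calls of HNRNPU (edgeR adjusted p = 0.0587), HNRNPUL1 (0.077), SRSF5 (0.069) and SRSF6 (0.0754) were lost. Deviations of same-numbered libraries from their group means correlated across genes at 0.116, 0.0518 and -0.263. Those of differently numbered libraries correlated at -0.357 to 0.343. Deviations within so small a group depend on one another, so these values cannot tell whether the numbers mark pairs. The cause of the differences between tools and left-out libraries was not tested. Depth limits SRSF12 in KD most, at 21 to 34 counts a library.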
